A study of Mus musculus with 13 samples.

Results

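Hyaluronan synthesis, breakdown and binding were examined in mammary gland fibroblasts through 9 genes taken by symbol from the count matrices: the synthases Has1, Has2 and Has3, the hyaluronidases Hyal1 and Hyal2, the receptor Cd44, and the binding proteins Tnfaip6, Vcan and Hapln1. All 9 symbols were found. Levels were taken over fibroblast barcodes, which held 500 to 7500 detected genes, no more than 10% of unique molecular identifiers (UMIs, counted molecules) from mitochondrial genes, and at least 50 UMIs of Dcn, Lum and Col1a2 together per 10000, with no UMI of Epcam, Pecam1, Rgs5, Sox10, Ptprc or Myog. Of 120355 barcodes, 100523 met these limits.

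The 13 libraries were single-cell 3′ RNA libraries in 9 groups. Stage groups were stroma of wildtype C57BL/6 females sorted as Lineage-negative and CD24-negative: puberty (4 weeks), adult (virgin, 9 weeks), pregnancy (day 14.5), lactation (day 10) and involution (day 4), with 1 library each from 2 pooled females. Placebo and MPA+E groups, 2 libraries each, were stroma of the same strain and sort from 9-week adults that had carried placebo pellets, or pellets of medroxyprogesterone acetate (MPA, a progestin) and estradiol (E), for a week, with 2 females behind each library per the study's methods. Hyperplasia and tumour groups, 2 libraries each, were GFP-positive cells from raGFP-Wnt1 females (Pdgfra-GFP KI/+ MMTV-Wnt1 T/+, mixed C57BL/6 and FVB background), in which the mouse mammary tumour virus promoter drives Wnt1 in mammary epithelium and GFP reports Pdgfra. Same-numbered hyperplasia and tumour libraries came from the same mouse, mouse 1 aged 45 weeks and mouse 2 aged 17 weeks, so the 2 mice differed in age as well. Strain background, genotype, sort and age all differed between raGFP-Wnt1 and wildtype libraries, and their effects cannot be told apart.

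Hyaluronan is a long unbranched sugar polymer that the Has enzymes extrude at the plasma membrane, and fibroblasts are its main producers in many connective tissues. Hyal2 cuts large chains at the cell surface and Hyal1 breaks fragments down in lysosomes. Cd44 is the main cell surface receptor. Versican (Vcan) is a large proteoglycan that binds the polymer, Hapln1 is a link protein that locks that bond, and the Tnfaip6 product TSG-6 moves heavy chains of inter-alpha-inhibitor onto hyaluronan. In the mammary gland, hyaluronan and versican are known components of the stroma around ducts and of tumour matrix.

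Positions are on GRCm38 with GENCODE M21. The synthases lie on 3 chromosomes, Has1 at chr17:17843323-17855205 (minus strand), Has2 at chr15:56665627-56694539 (minus strand, with the antisense gene Has2os opposite) and Has3 at chr8:106870242-106884566 (plus strand). Hyal2 (chr9:107567945-107572779) and Hyal1 (chr9:107576927-107581710) are neighbours on the plus strand, and Hyal1 overlaps Naa80 and Hyal3 on its own strand, so molecules of these 3 genes may not have been told apart in counting. Vcan (chr13:89655312-89742509, minus strand) and Hapln1 (chr13:89539796-89611652, plus strand) are also neighbours. Cd44 lies at chr2:102811141-102901665 (minus strand) and Tnfaip6 at chr2:52038009-52056686 (plus strand).

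Promoters are shown for Vcan and Cd44, the members with the largest increases from hyperplasia to tumour, and for Cemip, a hyaluronan-degrading protein with the largest rise among the related breakdown genes. Each is the 250 bases before the transcription start, from RefSeq on GRCm38.p6, written 5′ to 3′ on the strand of the gene, and capitals mark matches to the motifs searched on both strands.
Vcan chr13:89742513-89742762, minus strand: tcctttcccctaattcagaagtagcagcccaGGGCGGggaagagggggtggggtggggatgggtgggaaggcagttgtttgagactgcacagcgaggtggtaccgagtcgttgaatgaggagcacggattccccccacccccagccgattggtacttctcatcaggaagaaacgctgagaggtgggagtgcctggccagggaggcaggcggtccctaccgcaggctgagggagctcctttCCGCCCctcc
Cd44 chr2:102901666-102901915, minus strand: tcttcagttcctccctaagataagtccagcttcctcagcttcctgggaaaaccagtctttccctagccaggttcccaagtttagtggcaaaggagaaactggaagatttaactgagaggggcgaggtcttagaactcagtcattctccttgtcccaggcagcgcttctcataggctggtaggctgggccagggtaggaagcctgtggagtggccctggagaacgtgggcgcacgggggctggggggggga
Cemip chr7:84086506-84086755, minus strand: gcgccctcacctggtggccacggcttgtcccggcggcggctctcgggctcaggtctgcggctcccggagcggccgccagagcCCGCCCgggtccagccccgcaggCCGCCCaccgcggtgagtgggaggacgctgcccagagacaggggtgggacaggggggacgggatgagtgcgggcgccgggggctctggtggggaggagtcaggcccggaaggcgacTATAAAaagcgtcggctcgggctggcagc
The motifs were a TATA box (TATAAA), a GC box (GGGCGG), an AP-1 site (TGANTCA), a TCF/LEF site (CTTTGA) and an NF-kB site, which were present in 12.4%, 32.7%, 6.75%, 13.8% and 0.356% of 32851 promoters. The Vcan window held GC boxes at 219 and 10 bases before the start, written -219 and -10. The Cemip window held a TATA box at -29 and GC boxes at -168 and -145. The Cd44 window and that of Has1 held none of the 5 motifs. Of the other members with a window, Tnfaip6 had a GC box at -171 and an AP-1 match at -142, Hyal2 a GC box at -47 and Hyal1 overlapping GC boxes at -77 and -72. Hapln1 had none, and 7 of the 9 members had a window.

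Libraries held 5230 to 14424 barcodes and 4236 to 11951 fibroblasts, with median UMIs per fibroblast from 3990 (pregnancy) to 20256 (tumour 2). The 4 fibroblast marker genes, 3 of them used to choose the barcodes, were above 1 CPM in every library and summed to 17212 to 26440 CPM (UMIs of a gene per 1000000 fibroblast UMIs), against 0.123 to 33.4 CPM for epithelial, 0.36 to 1.78 for endothelial, 5.68 to 23.1 for pericyte, 1.46 to 51.1 for Schwann, 1.46 to 9.31 for leukocyte and 0.683 to 7.82 for muscle markers. No more than 51 barcodes were shared by any pair of libraries. In sums over cells, a change in the mix of fibroblast states and a change in RNA per cell cannot be told apart, which is why levels are also given within states. Each molecule is counted once at its 3′ end, so CPM was not scaled to length.

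Tnfaip6 and Has1 had the highest counts of the members, and Has3 and Hapln1 were close to undetected. Over the 13 libraries Tnfaip6 ranged from 1046 to 2519 CPM with a median of 1503, and Has1 from 403 to 1961 CPM with a median of 1049. Vcan (162 to 538 CPM, median 299), Cd44 (99.4 to 327 CPM, median 172) and Has2 (40.5 to 150.3 CPM, median 103) followed. The hyaluronidases were low, Hyal2 at 4.09 to 10.6 CPM and Hyal1 at 1.4 to 3.6 CPM. Has3 gave 360 UMIs in all (0.182 to 0.592 CPM), and Hapln1 31 UMIs in 11 of 13 libraries, up to 0.0842 CPM. Hapln1 was at 0 in the lactation and tumour 1 libraries, where 3 UMIs, the limit that a count of 0 allows, would be 0.0476 and 0.0293 CPM, and it did not pass the filter on low counts in any comparison. With no filter its adjusted p was 0.729 (hormone), 0.796 (hyperplasia) and 0.0739 (tumour). The highest library exceeded the lowest 4.86-fold for Has1, 3.71-fold for Has2, 3.31-fold for Vcan and 3.29-fold for Cd44, and 2.41-fold for Tnfaip6. Has1 and Tnfaip6 were highest in placebo 2, Has2 and Vcan in tumour 2, and Cd44 in tumour 1.

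**Figure D1:**
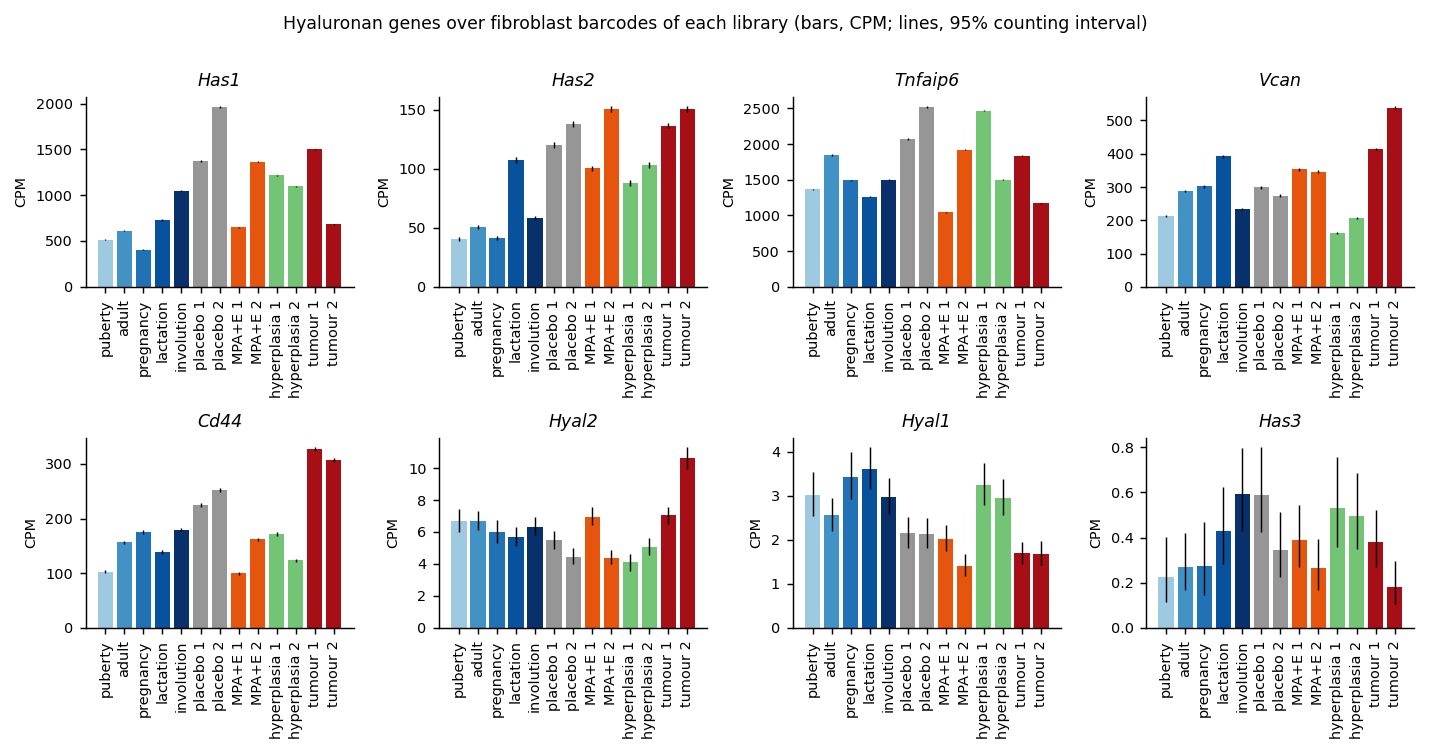
CPM (y axis, UMIs of the gene per 1000000 fibroblast UMIs) of 8 members in each of the 13 libraries (x axis), as bars coloured by group from 0, with lines for exact 95% Poisson counting intervals. Has1 and Tnfaip6 reach 1961 and 2519 CPM in placebo 2, and the tumour bars of Cd44 (327 and 308) and Vcan (414 and 538) stand above the hyperplasia bars.

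Across the developmental stages Has2 was highest in lactation and Has1 in involution, whereas Tnfaip6 varied least among the abundant members. With 1 library a stage there is no test, and the intervals below cover counting error only. Has2 stood at 40.5, 50.7, 41.4, 107 and 58.1 CPM in the puberty, adult, pregnancy, lactation and involution libraries. Lactation exceeded pregnancy 2.60-fold (95% interval 2.47 to 2.73), and involution was at 0.541 of lactation (0.52 to 0.562). The other 4 stages lay between 40.5 and 58.1 CPM, so the lactation library stood apart among the stages. The placebo libraries, from adults of the strain, sort and age of the adult library, held 120 and 138 CPM, above lactation. Differences between libraries of 1 stage are therefore not covered by these intervals.

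Has1 stood at 513, 609, 403, 729 and 1049 CPM in that order of stages. Its lowest library was pregnancy and its highest involution, 2.60-fold apart (2.56 to 2.64). The placebo adults held 1372 and 1961 CPM of Has1, above involution. A list of 9 immediate-early genes (Fos, Fosb, Jun, Junb, Egr1, Atf3, Ier2, Zfp36 and Nr4a1), chosen after the data were seen and above 1 CPM for all 9 in every library, was also highest of the stages in involution, at 26031 CPM against 17355 to 21724 in the others. The 5 epithelial markers summed to 33.4 CPM in pregnancy, with 4 above 1 CPM and Epcam at 0, and to 0.123 to 1.02 CPM in the other stages. An unnamed cluster led by the milk protein genes Wap, Csn1s1 and Csn2 made up 13.2% of lactation fibroblasts. In the other stages it made up 4.17% (adult) to 6.73% (puberty). The part of these in the levels of the members was not tested. Vcan stood at 213, 288, 302, 393 and 234 CPM in the same order, with lactation 1.85-fold above puberty (1.81 to 1.89). Vcan and Has2 thus shared a peak in the lactation library, and both were lower in involution, Vcan at 0.597 of lactation. Cd44 stood at 103, 156, 175, 139 and 179 CPM, 1.74-fold (1.69 to 1.80) between puberty and involution. Tnfaip6 stood at 1364, 1849, 1491, 1260.2 and 1499.96 CPM, 1.47-fold between adult and lactation. Hyal1 (1.41-fold, 1.16 to 1.72) and Hyal2 (1.17-fold, 1.02 to 1.35) moved little beyond their counting error. Of the 7 members with enough counts, 2 (Has1 and Has2) differed at least 2-fold between the highest and lowest stage. Of 12350 genes 23.8% did so, and 2 of 7 is near that share. Of single steps from 1 stage to the next, 1 reached 2-fold, the rise of Has2 into lactation, beside 6.5% of genes rising and 4.11% falling as much at that step. At the other steps the shares of genes rising and falling 2-fold were 1.67% and 1.79% (adult over puberty), 1.93% and 0.389% (pregnancy over adult), and 2.74% and 1.44% (involution over lactation).

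The members were then compared between fibroblast states within each library. Barcodes were clustered separately for stage, hormone and raGFP-Wnt1 libraries, with the members and state markers left out of the clustering. Clusters were named progenitor, preadipocyte, lobular, adipogenesis-regulatory, extracellular matrix (ECM) remodelling, myofibroblastic or cycling from marker lists by a scoring rule set after the cluster tables were seen. Names depended on the clustering resolution. In the raGFP-Wnt1 libraries the preadipocyte state held 5779 cells at resolution 0.3, used here, and 1738 at 0.6. At 0.6 a cluster of 3782 cells led by Prg4 and Adm was named progenitor. In the stage libraries the ECM remodelling state held 1275 cells at 0.3, and at 0.6 clusters of 5886 and 1241 cells took that name. The values by state are a description, with no test.

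Of the named states, the progenitor state had the highest Has2 in 13 of 13 libraries. Progenitor levels were 61.9, 79.6, 64, 198 and 129 CPM from the puberty to the involution library. They were 207 and 243 in placebo, 125 and 204 in MPA+E, 248 and 247 in hyperplasia, and 311 and 248 in tumour. The progenitor level was 1.51 ± 0.49 (SD, n = 13 libraries) log2 units above the other named states pooled, and 0.82 to 2.39 in single libraries. Has2 in the adipogenesis-regulatory state was below the other named states pooled in 13 of 13 libraries (mean log2 difference -1.07), though not below each of them. The rise into lactation was seen in each of the 5 named states with enough cells: progenitor 64 to 198 CPM, lobular 28.8 to 90.4, preadipocyte 31 to 77.6, adipogenesis-regulatory 24.3 to 48.5 and ECM remodelling 57.7 to 89.7.

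Has1 was above the other named states pooled in the progenitor state in 12 of 13 libraries (mean log2 difference 0.81 ± 0.55 SD), and was highest there in 9 of 13. In the other 4, lobular fibroblasts were highest. Has1 was lowest in ECM remodelling fibroblasts in the 5 stage libraries, at 114 to 296 CPM, and in myofibroblastic fibroblasts in the 4 raGFP-Wnt1 libraries, at 225 to 360 CPM. In involution it reached 1774 CPM in progenitor and 1725 in lobular fibroblasts, against 758 in preadipocytes and 171 in ECM remodelling fibroblasts.

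The receptor and the binding proteins shared parts of this pattern and differed in others. Against the other named states pooled, Cd44 was lower in ECM remodelling fibroblasts in 13 of 13 libraries (mean log2 difference -0.98 ± 0.33 SD) and higher in preadipocytes in 11 of 13 (0.54 ± 0.40 SD). Has1 and Has2 were lower in ECM remodelling fibroblasts too, each in 12 of 13 (-1.22 and -1.13), but Has2 was lower in preadipocytes in 12 of 13 (-0.52). Vcan was lower in adipogenesis-regulatory fibroblasts in 13 of 13 libraries (-1.14 ± 0.29 SD), at 98.6 to 169 CPM over the stages, and higher in progenitors in 12 of 13. Tnfaip6 was lower in the myofibroblastic state of all 4 raGFP-Wnt1 libraries, by -1.97 ± 0.87 (SD) log2 units. So were Has1 (-2.12), Has2 (-2.09), Vcan (-1.25) and Cd44 (-0.87), in all 4 libraries.

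**Figure D2:**
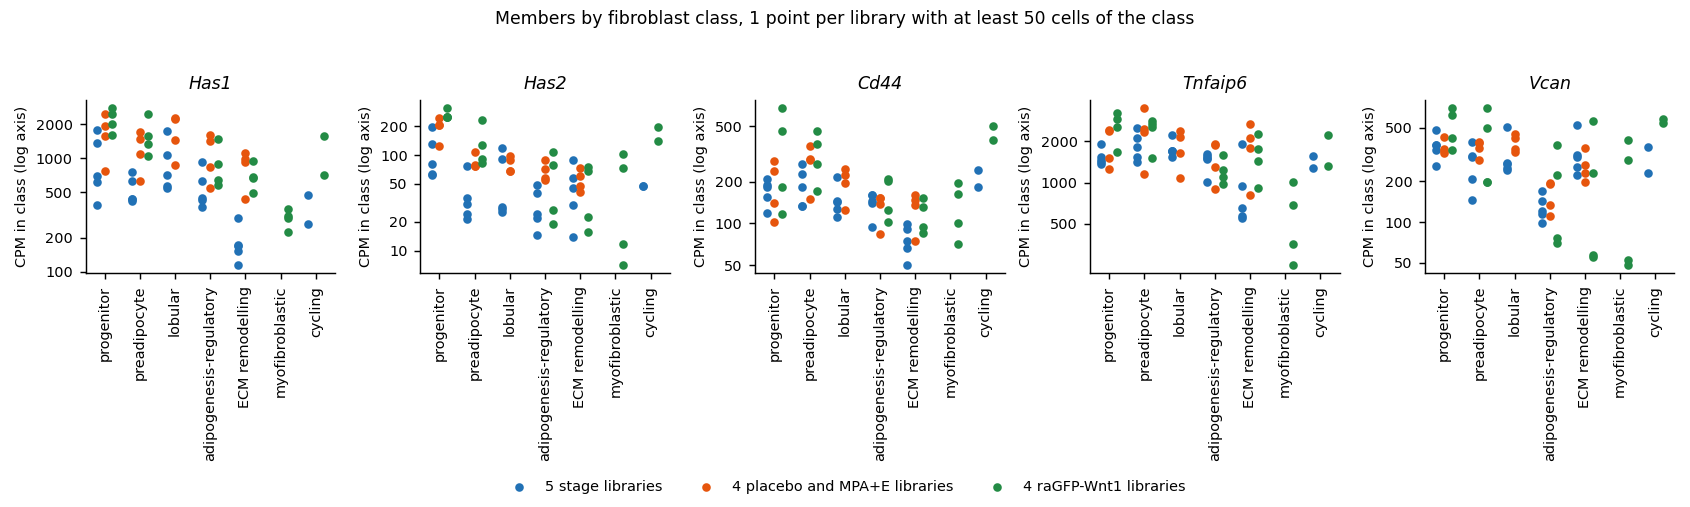
CPM within each fibroblast state (log y axis) for Has1, Has2, Cd44, Tnfaip6 and Vcan, 1 point per library with at least 50 cells of the state, coloured by the 5 stage, 4 hormone and 4 raGFP-Wnt1 libraries. Has2 points are highest in the progenitor column, at 61.9 to 311 CPM, and Vcan points of the adipogenesis-regulatory column lie low.

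The share of cells with at least 1 UMI of Has2 was likewise highest in progenitors in 13 of 13 libraries, with each cell thinned to 2000 UMIs and shallower cells left out (86 to 1310 per library). Has2 was detected in 11 to 26.9% of progenitors over the stages, 17.7 to 30.1% in the hormone libraries and 29.3 to 36.7% in the raGFP-Wnt1 libraries. Over all fibroblasts it was detected in 6.42 to 15.3%, 12.9 to 17.8% and 8.98 to 18.8%, and without thinning in 13 to 34.9% over the stages. Of barcodes of other types, thinned alike, 0.717% of endothelial (median 2365.5 UMIs), 2.97% of epithelial (8815) and 2.44% of pericyte barcodes (3817) held a Has2 UMI. Has1 was detected in 44.9 to 78.9% of fibroblasts, against 8.60%, 2.06% and 7.99% in these other types, and Tnfaip6 in 56.2 to 84.4%, against 20.4%, 6.64% and 13%. Vcan was detected in 18.9 to 57.7% of fibroblasts, against 2.51%, 18.8% and 0.666%, and Cd44 in 15 to 37.7%, against 5.02%, 14.9% and 7.66%. For both genes the lowest fibroblast library was close to epithelial barcodes and above endothelial and pericyte barcodes. Hyal1 was detected in 0.319 to 0.822% of fibroblasts, against 0.717%, 3.43% and 0.777%. The fibroblast range spans the endothelial and pericyte shares and lies below the epithelial one. Hyal2 was detected in 0.839 to 2.06% of fibroblasts, against 7.89%, 3.20% and 0.666%, below the endothelial and epithelial shares throughout. Neither share is read as evidence of expression by fibroblasts.

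Hormone treatment was compared next, with MPA+E against placebo over all fibroblasts. None of the 8 members tested by edgeR passed an adjusted p of 0.05. Over all genes, 678 of 15642 (4.33%) passed, 2.69% higher and 1.64% lower. Cd44, the receptor, stood at 225 and 253 CPM in placebo and 99.4 and 162 in MPA+E. The groups did not overlap, and the log2 fold change was -0.85 (SE 0.29, adjusted p = 0.209). Leaving out a library moved the change from -0.51 (without MPA+E 1, adjusted p = 0.187) to -1.31 (without MPA+E 2, 0.0168), each with 1 MPA+E library that is assumed to vary like the placebo libraries. It did not pass without placebo 1 (0.402) or placebo 2 (0.617), and DESeq2 called it (adjusted p = 0.0331).

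Has1 stood at 1372 and 1961 CPM in placebo and 650.4 and 1367 in MPA+E, and Tnfaip6 at 2072 and 2519 against 1046 and 1922. MPA+E 1 was the lower library in both, and the fitted changes were -0.71 (SE 0.43, adjusted p = 0.482) for Has1 and -0.61 (SE 0.35, adjusted p = 0.453) for Tnfaip6. The immediate-early list summed to 31809 and 27452 CPM in placebo and 24338 and 24734 in MPA+E. The 4 pericyte markers, with Rgs5 at 0 by the choice of barcodes, summed to 16.5 and 15.3 against 8.34 and 9.81 CPM. Neither list overlapped between the groups, and their part in these results was not tested. Vcan stood at 299 and 274 CPM in placebo and 353 and 346 in MPA+E, with a change of 0.30 (SE 0.10, adjusted p = 0.203). Has2 overlapped between the groups, at 120.1 and 138 against 100.3 and 150.1 CPM (-0.03, SE 0.25, adjusted p = 0.977). Hyal1, Hyal2 and Has3 changed by -0.32, 0.20 and -0.50, with adjusted p from 0.549 to 0.732. The members' median change was -0.41, beside 0.01 over all genes tested.

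Within states, 1 of 34 member and state pairs passed in the hormone comparison. Vcan rose in adipogenesis-regulatory fibroblasts, from 134 and 112 CPM in placebo to 190 and 194 under MPA+E (0.72 on the log2 scale, SE 0.13, adjusted p = 0.0321), where 3.8% of genes passed and 2.53% passed as higher. In the other states tested, 1.06% (ECM remodelling), 2.63% (lobular), 3.31% (preadipocyte) and 4.09% (progenitor) of genes passed. The pair did not pass without placebo 1 (adjusted p = 0.106), placebo 2 (0.22) or MPA+E 2 (0.0868). Progenitor Cd44 stood at 240 and 280 CPM against 103 and 141 (-1.07, adjusted p = 0.0502). Progenitor Has2 stood at 207 and 243 against 125 and 204 CPM, whereas Has2 in ECM remodelling fibroblasts stood at 47.2 and 41.3 against 60.5 and 72.8. Progenitors made up 31.6% and 34% of fibroblasts in placebo and 16% and 20.7% in MPA+E. An unnamed cluster led by Ctla2a, Tgm2 and Ccn5 scored highest for progenitor markers. It made up 4.98% and 5.71% of fibroblasts in placebo and 16.7% and 17.8% in MPA+E, and members were not tested within it. The part of these shares in the sums over all fibroblasts was not tested.

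In hyperplasia-associated fibroblasts Has2 was the member that passed against the normal puberty and adult libraries. It stood at 40.5 and 50.7 CPM in normal and 87.6 and 103 CPM in hyperplasia, with no overlap (log2 fold change 1.03, SE 0.16, adjusted p = 0.0197, limma-voom). Of all genes, 14% passed, 7.7% as higher and 6.29% as lower, so 1 of 8 members tested is near the share over all genes. Has2 did not pass without puberty (adjusted p = 0.143), adult (0.0717), hyperplasia 1 (0.114) or hyperplasia 2 (0.108). Has1 stood at 513 and 609 CPM in normal and 1216 and 1096 in hyperplasia (1.01, SE 0.36, adjusted p = 0.101), and did not overlap either. It passed by DESeq2 (adjusted p = 0.0289). The placebo libraries, wildtype adults of the same age and sort as the adult library, were not in this fit. They held 120 and 138 CPM of Has2 and 1372 and 1961 CPM of Has1, above both hyperplasia libraries. Vcan was at 213 and 288 against 162 and 206 CPM (-0.47, adjusted p = 0.166), and Hyal2 at 6.69 and 6.70 against 4.09 and 5.07 (-0.58, adjusted p = 0.167). Cd44 (0.18, adjusted p = 0.640), Tnfaip6 (0.25, 0.625), Hyal1 (0.13, 0.698) and Has3 (0.98, 0.206) did not pass. The members' median was 0.21, beside -0.01 over all genes. The immediate-early list summed to 17355 and 21724 CPM in normal and 46278 and 38262 in hyperplasia. The 4 muscle markers, with Myog at 0 by the choice of barcodes, summed to 7.82 and 4.44 against 0.726 and 1.33 CPM. The part of either in these results was not tested.

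In tumours, 5 of 8 members passed against hyperplasia of the same mice, 4 higher and 1 lower, beside 29.3% of all 16302 genes tested, 15.4% higher and 13.9% lower. Vcan, the large proteoglycan, rose from 162 and 206 CPM in hyperplasia to 414 and 538 in tumour (log2 fold change 1.37, SE 0.22, adjusted p = 0.0110). Cd44 rose from 172 and 123 to 327 and 308 CPM (1.12, SE 0.25, adjusted p = 0.0240). In both genes each tumour library exceeded each hyperplasia library, and the tumour levels of Cd44 were the highest of the 13 libraries. Has2 rose from 87.6 and 103 to 136 and 150.3 CPM (0.60, SE 0.17, adjusted p = 0.0406), and Hyal2 from 4.09 and 5.07 to 7.03 and 10.6 CPM (0.91, SE 0.24, adjusted p = 0.0363). Hyal1 fell from 3.24 and 2.95 to 1.69 and 1.67 CPM (-0.87, SE 0.22, adjusted p = 0.0327), with reads it may share with Naa80 and Hyal3. Both hyaluronidases were at detection shares, given above, that did not exceed those of every other cell type.

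Has1 stood at 1216 and 1096 CPM in hyperplasia and 1502 and 684 in tumour (-0.19, adjusted p = 0.711). The 2 tumours lay on either side of the hyperplasia libraries, and the change was 0.41 without tumour 2 and -0.78 without tumour 1, where it passed (adjusted p = 0.0148) with the lone tumour library assumed to vary like the other groups. Tnfaip6 stood at 2470 and 1503 against 1838 and 1172 CPM (-0.40, adjusted p = 0.390), lower in the tumour of each mouse but overlapping between groups. Has3 stood at 0.531 and 0.497 against 0.38 and 0.182 CPM (-0.93, adjusted p = 0.158). The members' median was 0.20, beside -0.01 over all genes.

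The tumour calls rest on few libraries. No member passed without hyperplasia 1 (Vcan adjusted p = 0.0854, Cd44 0.0810) or hyperplasia 2 (Vcan 0.0549, Cd44 0.111). With each mouse as a replicate block, in the raGFP-Wnt1 libraries alone, Vcan (adjusted p = 0.0143), Cd44 (0.0205), Has2 (0.0361) and Hyal2 (0.0321) passed and Hyal1 did not (0.0540). In the same libraries without the block, an alternative chosen after seeing the data, Vcan (0.0226) and Cd44 (0.0342) passed and the other 3 did not. Has2, Hyal1 and Hyal2 also did not pass without puberty, without adult or without tumour 2. The 6 leukocyte markers summed to 4.58 and 3.41 CPM in hyperplasia and 6.79 and 9.31 in tumour, the 4 pericyte markers to 13.1 and 12.9 and then 23.1 and 20.2, the 4 Schwann cell markers to 15.6 and 21.7 and then 9.12 and 1.46, and the immediate-early list to 46278 and 38262 and then 23678 and 15601. The part of these in the results was not tested. Ptprc and Rgs5, which define leukocytes and pericytes, were at 0 by the choice of barcodes.

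**Figure D3:**
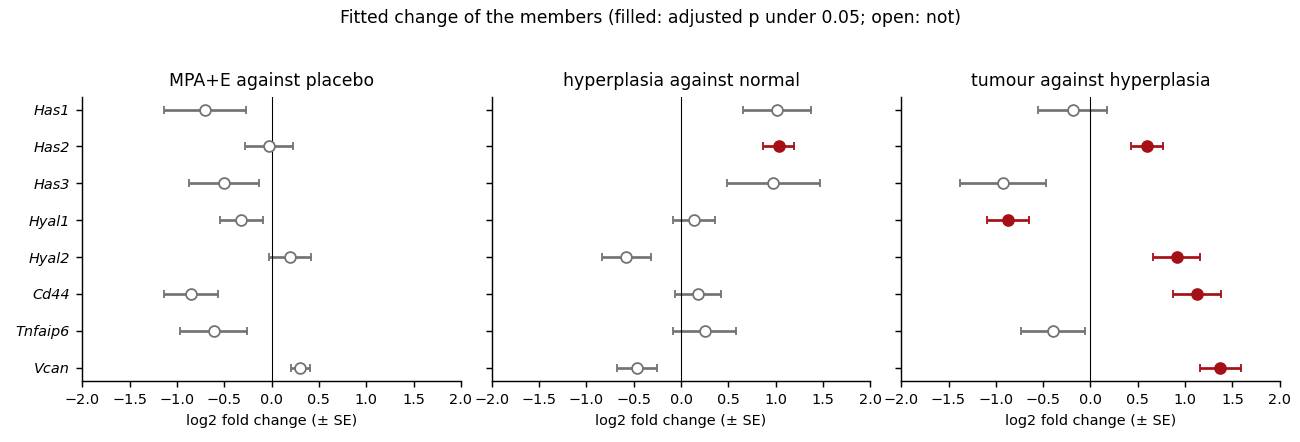
Fitted log2 fold change with its SE (x axis) for 8 members (y axis) in the 3 comparisons over all fibroblasts, filled where the adjusted p was under 0.05 and open where it was not. The hormone panel has no filled point, the hyperplasia panel has Has2 at 1.03, and the tumour panel has Vcan, Cd44, Hyal2 and Has2 above 0 and Hyal1 below 0.

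The mix of states differed between hyperplasia and tumour, so the members were compared within each state too. Myofibroblastic fibroblasts made up 2.63% and 2.38% of fibroblasts in hyperplasia (159 and 190 cells) and 24.4% and 27.8% in tumour (2180 and 1176 cells). ECM remodelling fibroblasts made up 45.4% and 41.2% and then 12.4% and 12.3%. The study reported Acta2-positive myofibroblastic clusters as absent from hyperplastic glands, and Cd36-positive committed preadipocytes as absent from tumours. States were named over hyperplasia and tumour cells pooled, so a name may not hold for the cells of each group. Of 34 member and state pairs, 10 passed, 9 higher and 1 lower in tumour. The share of all genes passing was 26.7% in myofibroblastic, 14% in ECM remodelling, 4.09% in preadipocyte, 3.53% in adipogenesis-regulatory and 2.61% in progenitor fibroblasts. Those passing as higher were 11.5%, 8.49%, 1.98%, 2.51% and 1.67% in the same order, and 15.3% passed as lower in myofibroblastic fibroblasts. Without hyperplasia 2, 3 pairs passed, and without hyperplasia 1, 6 pairs.

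Vcan passed in 4 of 5 states. In myofibroblastic fibroblasts it stood at 47.9 and 52.1 CPM in hyperplasia and 287 and 407 in tumour (2.63, SE 0.25, adjusted p = 0.00028). In ECM remodelling fibroblasts it stood at 56.6 and 55 against 230.2 and 565 CPM (2.55, SE 0.37, adjusted p = 0.0171). The increase was also called in adipogenesis-regulatory fibroblasts, from 76.3 and 69.8 to 224 and 375 CPM (1.89, adjusted p = 0.00827), and in preadipocytes, from 199 and 198 to 497 and 701 CPM (1.61, adjusted p = 0.0284). Progenitors, of these 5 the state with the most Vcan in hyperplasia, went from 343 and 422 to 624 and 703 CPM (0.84, adjusted p = 0.0716; 0.0302 with the replicate block). In each of the 5 states both tumour libraries exceeded both hyperplasia libraries. The states come from the same libraries, so they are not independent, and the share of all genes that separated so was not counted.

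Has2 passed in 3 of 5 states, those where it was lowest in hyperplasia. Myofibroblastic fibroblasts held 7.12 and 11.9 CPM in hyperplasia and 102 and 72.6 in tumour (3.03, SE 0.45, adjusted p = 0.00218). ECM remodelling fibroblasts held 22.6 and 15.7 against 75.8 and 68.2 CPM (1.79, SE 0.23, adjusted p = 0.0130), and adipogenesis-regulatory fibroblasts 26.6 and 18.8 against 79.5 and 107 CPM (1.94, SE 0.27, adjusted p = 0.00800). Preadipocytes held 83 and 91.4 against 128 and 231 CPM (1.06, adjusted p = 0.0946; 0.0262 with the block). Progenitors held 248 and 247 against 311 and 248 CPM (0.19, SE 0.19, adjusted p = 0.653). The difference between states in this change was not tested, and tumour 2 held 60 progenitors.

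Cd44 passed in progenitors, from 183 and 116 to 460.3 and 681 CPM (1.99, SE 0.30, adjusted p = 0.0227). Tumour 2 held 60 progenitors. Cd44 also passed in myofibroblastic fibroblasts, from 100.5 and 71.2 to 197 and 162 CPM (0.96, SE 0.22, adjusted p = 0.0142). With the replicate block it passed in ECM remodelling (adjusted p = 0.0347), adipogenesis-regulatory (0.0305) and preadipocyte fibroblasts (0.0416) as well. An unnamed cluster with Cxcl5, Tnc and Spp1 among its leading genes, which held 1.34% and 1.39% of fibroblasts in hyperplasia and 13.8% and 34.9% in tumour, had 441 and 386 CPM of Cd44 in hyperplasia and 380 and 375 in tumour. Cycling fibroblasts of the tumours had 507 and 396 CPM.

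Tnfaip6 was the member that fell within a state, the myofibroblastic one, and with the replicate block it also fell in ECM remodelling fibroblasts (-0.65, adjusted p = 0.0372). In myofibroblastic fibroblasts it went from 1009 and 689 CPM in hyperplasia to 354 and 249 in tumour (-1.61, SE 0.23, adjusted p = 0.00191). In adipogenesis-regulatory fibroblasts it stood at 1107 and 970.5 against 1603 and 1229 CPM (0.34, adjusted p = 0.474), the opposite direction in both mice. Has1 passed in none of the 5 states, from -0.22 in myofibroblastic (adjusted p = 0.522) to 0.82 in adipogenesis-regulatory fibroblasts (0.152), where with the block it did (adjusted p = 0.0412), as it did in preadipocytes (0.0248). Hyal2 in myofibroblastic fibroblasts changed by 1.32 and passed with the block (adjusted p = 0.0304) but not without it (0.0881).

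**Figure D4:**
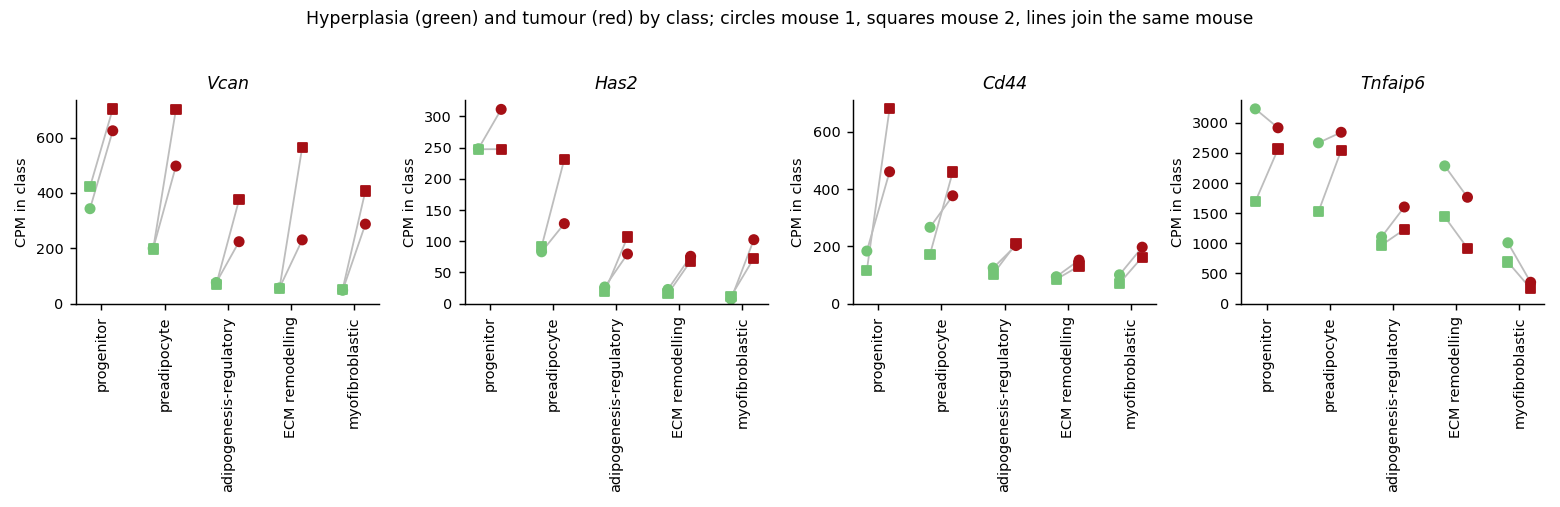
CPM of Vcan, Has2, Cd44 and Tnfaip6 (y axis) in 5 fibroblast states (x axis) for hyperplasia (green) and tumour (red), circles for mouse 1 and squares for mouse 2, with lines joining the libraries of a mouse. Lines for Vcan rise in every state, those for Has2 stay near 248 CPM in the progenitors of mouse 2, and those for Tnfaip6 descend in the myofibroblastic state.

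The wider pathway was followed through a list of 39 related genes in 6 groups. In the hormone comparison 1 of 31 tested passed, Adamts15, a protease that cuts versican, at 39 and 29.6 CPM in placebo and 67.7 and 62.9 under MPA+E (0.95, SE 0.12, adjusted p = 0.0219). It did not pass without placebo 1 (0.0805) or placebo 2 (0.133), and 1 of 31 is near the 4.33% of all genes that passed. Within states under hormone, 1 of 20 to 23 tested passed in each of the 5 states, beside 1.06% to 4.09% of all genes. Adamts15 was higher in adipogenesis-regulatory and in preadipocyte fibroblasts. Adamts8 (ECM remodelling), Adamts9 (lobular) and Adamts4 (progenitor) were lower. Against normal, 0 of 31 passed in hyperplasia by limma-voom, beside 14% of all genes. From hyperplasia to tumour 7 passed as higher and 4 as lower, and 20 did not pass. Of all genes 15.4% passed as higher and 13.9% as lower (29.3% in all), so 11 of 31 is close to the share over all genes.

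Breakdown genes other than Hyal1 and Hyal2 moved in both directions in tumour. Cemip, which binds hyaluronan and promotes its degradation, was at 0.283 and 0.138 CPM (16 and 10 UMIs) in hyperplasia and 44.2 and 15.1 in tumour (7.01, SE 1.18, adjusted p = 0.0128), and at no more than 0.356 CPM in the 9 wildtype libraries. The order of states differed between the tumours. The Cxcl5, Tnc and Spp1 cluster held 103 CPM in tumour 1 and 13.7 in tumour 2, myofibroblastic fibroblasts 43.8 and 24.8, preadipocytes 37.5 and 26.4, and ECM remodelling fibroblasts 3.68 and 2.30. Within states Cemip passed as higher in ECM remodelling, myofibroblastic and preadipocyte fibroblasts. Cemip2, a cell surface hyaluronidase, rose from 16.1 and 10 to 39.8 and 93 CPM (2.28, adjusted p = 0.0145). Within states it passed as higher in the myofibroblastic one (2.19, adjusted p = 0.00782), where Hexa passed as lower. Hyal3, which overlaps Hyal1, fell from 0.761 and 0.801 to 0.224 and 0.228 CPM (-1.77, adjusted p = 0.0168).

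Of the 5 other receptors, Hmmr, Layn and Stab1 passed as higher and Lyve1 as lower. Hmmr, which is also made in dividing cells, was at 0.336 and 0.0276 CPM (19 and 2 UMIs) in hyperplasia and 7.83 and 23.6 in tumour (7.06, adjusted p = 0.0271), where cycling fibroblasts held 134 and 164 CPM. Cycling cells numbered 4 in hyperplasia 1 and 311 and 442 in the tumours. Layn, a membrane receptor for hyaluronan, rose from 13.5 and 16.8 to 29 and 41.5 CPM (1.20, adjusted p = 0.0145), and within states passed in progenitors (2.51, adjusted p = 0.0110). Stab1 and Lyve1, receptors of endothelial and macrophage cells, stayed under 4 CPM in every library, and neither passed without the 5% of barcodes with most UMIs (adjusted p = 0.0599 and 0.0988).

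Of the genes that supply the sugar precursors, 0 of 7 passed over all fibroblasts in tumour, and within states Gnpnat1 passed as higher in ECM remodelling fibroblasts (1.16, adjusted p = 0.0406). Ugdh, which makes UDP-glucuronic acid, stood at 1137 and 1054 CPM in hyperplasia and 874 and 276 in tumour (-1.16, adjusted p = 0.122). Tumour 2 was the lowest of the 13 libraries in Ugdh, Ugp2, Gfpt2 and Uap1. Of the heavy-chain donors and cross-linkers 0 of 4 passed over all fibroblasts. Itih5 stood at 722 and 735 against 503 and 164 CPM (-1.35, adjusted p = 0.0812) and Ptx3, a pentraxin that cross-links hyaluronan with TSG-6, at 542 and 459 against 1297 and 736 (0.97, adjusted p = 0.0592). Within states Ptx3 passed as higher in 4 of 5, by 3.43 in ECM remodelling (adjusted p = 0.00367), 2.95 in adipogenesis-regulatory (0.000914), 2.65 in myofibroblastic (0.000186) and 2.87 in preadipocyte fibroblasts (0.0216). Its change in progenitors was 0.78 (adjusted p = 0.142). Itih5 passed as lower in myofibroblastic fibroblasts (-2.26, adjusted p = 0.000642). Of 2 other link proteins none passed over all fibroblasts, and Hapln3 passed as higher in ECM remodelling fibroblasts (1.89, adjusted p = 0.0321).

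Proteases that cut versican divided, with Adamts4 and Adamts20 higher and Adamts1 and Adamts9 lower. Adamts1 fell from 1268 and 994 CPM in hyperplasia to 588 and 354 in tumour (-1.30, SE 0.28, adjusted p = 0.0224). Adamts4 went from 75.3 and 59 to 140 and 135 CPM (1.04, adjusted p = 0.0176). Adamts20 was at 0.159 and 0.0552 CPM (9 and 4 UMIs) in hyperplasia and 1.17 and 1.04 in tumour (3.49, adjusted p = 0.0120). Adamts5 stood at 1122 and 910 against 808 and 280 CPM and did not pass over all fibroblasts (adjusted p = 0.122). Within states Adamts4 passed as higher in 4 of 5 (1.47 to 4.23), Adamts8 in 3 (3.44 to 4.47), Adamts15 in 3 (1.37 to 2.47) and Adamts20 in the myofibroblastic one (1.92). Adamts1 (-2.60) and Adamts5 (-2.005) passed as lower in the myofibroblastic state and Adamts9 (-2.71) in progenitors. The 8 called genes with the largest changes (Hmmr, Cemip, Adamts20, Cemip2, Lyve1, Hyal3, Adamts1 and Stab1) did not pass without hyperplasia 1 or without hyperplasia 2, at adjusted p from 0.0743 to 0.199. Layn, Adamts4, Adamts9 and the pathway genes that did not pass were named after their values were seen.

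**Figure D5:**
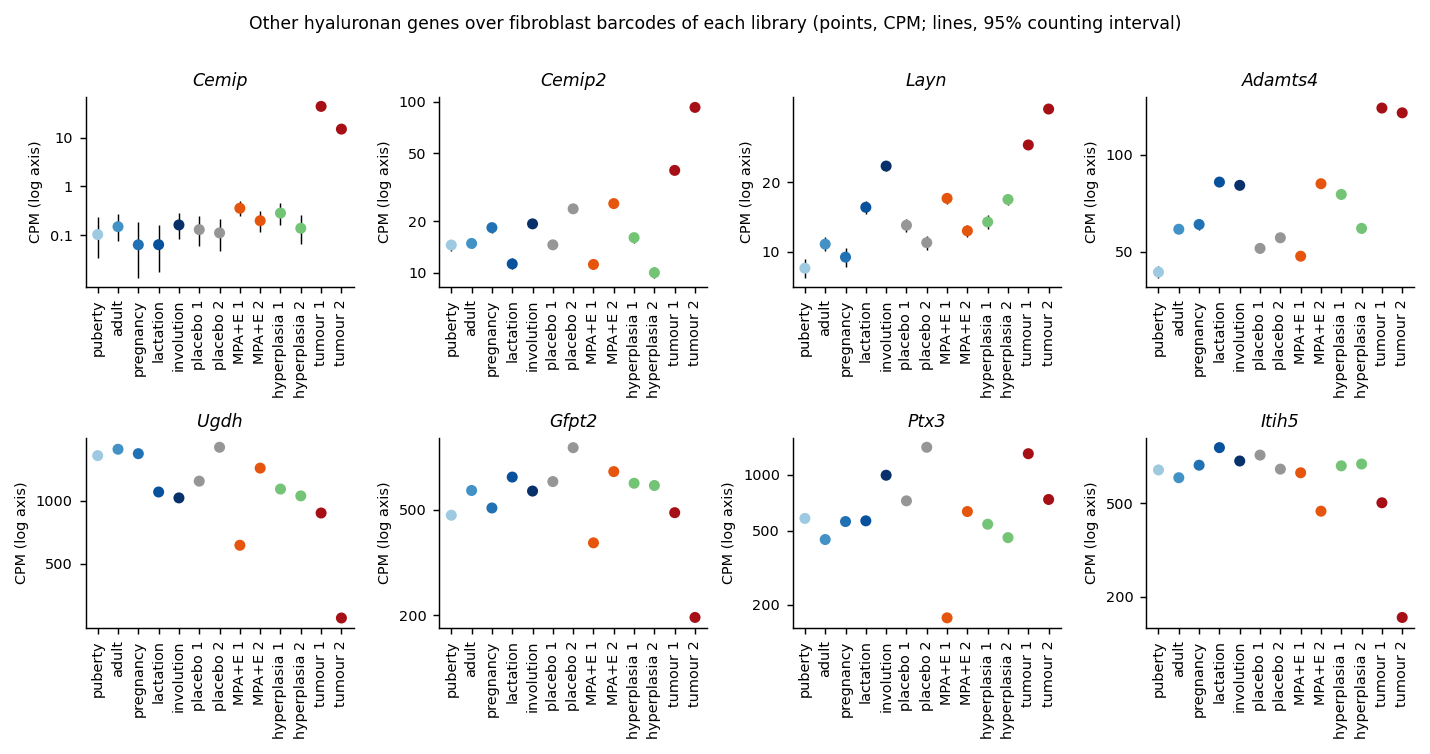
CPM (log y axis) of Cemip, Cemip2, Layn, Adamts4, Ugdh, Gfpt2, Ptx3 and Itih5 in the 13 libraries (x axis), as points coloured by group with 95% counting intervals. Cemip lies at or below 0.356 CPM in all libraries but the tumours, at 44.2 and 15.1, and Ugdh is lowest in tumour 2.

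Genes with the profile most like each member were found over the 13 libraries from the root mean square difference of centred log2(CPM + 1) values among 7865 or 7866 candidates of at least 10 CPM. For Has1 these were Myc (0.239 log2 units), Zfp36 (0.327) and Vegfa (0.353), where the spread of Has1 itself was 0.658. For Tnfaip6 they were Pvr (0.175), Litaf (0.199) and Cish (0.207), with its own spread at 0.380. For Cd44 they were Cers6 (0.289), Vmp1 (0.293) and Panx1 (0.297), and for Has2 Mrps28 (0.280), Tm9sf1 (0.303) and Ybx3 (0.310), against own spreads of 0.520 and 0.659. For Vcan the closest were Znhit1 (0.214), Ttc37 (0.216) and Mogs (0.225), against 0.449. Hyal2 was closest to Tmem119 (0.104), Pdap1 (0.107) and Taf12 (0.111), against 0.302. No member was among the 3 closest genes of another. Hyal2, Hyal1, Has3 and Hapln1 averaged under 10 CPM and could not be candidates. For the rest, 3 places among 7865 or 7866 candidates make this likely in advance, so nothing is read from it.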

How the data were processed

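The members and lists were chosen with earlier results of these data known. The deposited matrices hold UMI counts per gene and barcode, made by the authors with Cell Ranger 6.1.2 and mm10, per the submitters' processing notes. Fibroblast counts were summed per library and tested by edgeR 4.0.16 quasi-likelihood (hormone) or limma-voom 3.58.1 (1 fit of hyperplasia, tumour, puberty and adult libraries), R 4.3.3, with TMM, filterByExpr and Benjamini-Hochberg adjustment over all genes tested (called under 0.05). States came from Seurat 5.3.0 (1000 features, 30 components, resolution 0.3), and no doublet caller was run. A state was tested where each of the 4 libraries held at least 50 cells. Intervals are exact and cover counting error only.

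Named genes were the members, the 8 pathway genes with the largest called changes, and the 3 genes of most similar profile per member. Same-numbered hyperplasia and tumour libraries shared a mouse, per the labels (correlation of their deviations from group means 0.0954 over 16001 genes). DESeq2 1.42.0, size factors, filters, the replicate block and leaving out each library were the alternatives. With 2 libraries a group, p-values measure the spread between these libraries, shared over groups and moderated over genes. In the joint limma-voom fit puberty and adult formed 1 normal group, so their stage difference is part of that spread. The p-values of tumour against hyperplasia rest on it too. With the replicate block, fits of 4 libraries leave few residual degrees of freedom, so their p-values lean on the moderation over genes. On counts simulated with 1 fixed spread for all genes, the hormone fit recovered 86% of 2-fold increases and 84% of 2-fold decreases. The hyperplasia fit recovered 88% and 82%, and the tumour fit 80% and 78%. That spread was not estimated from the members, so these shares do not give the power to detect their changes.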

Additional observations from a re-analysis of the deposited data

Results flagged for a closer look

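Has2 had ratios on both sides of 1 between states under hormone treatment, with both MPA+E libraries above both placebo libraries in some states and below them in another. The ratio of mean CPM, MPA+E over placebo, was 1.51 in ECM remodelling (adjusted p = 0.290, edgeR) and 1.42 in adipogenesis-regulatory fibroblasts (0.167), and 0.731 in progenitors (0.496), so none of these changes was called. The difference between states was not tested. For Tnfaip6 the ratio of tumour over hyperplasia was 1.36 in adipogenesis-regulatory fibroblasts, which was not called (adjusted p = 0.474, limma-voom), and 0.355 in myofibroblastic fibroblasts, which was called lower. The difference between these states was not tested either. Both cases were picked by a search over all members and states for groups that did not overlap, in opposite directions. Groups of 2 libraries often separate with no change behind it, and the share of all genes that did so was not counted, here or above.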

How the results depend on the processing

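The stage ratios and the states of highest level kept their direction under the alternatives run. Calls over few libraries moved more, and the cause was not tested. For MPA+E against placebo, 678 genes were called, 1358 by DESeq2, 2451 with the replicate block and 22 to 900 leaving out a library. Members called went from 0 to 1 by DESeq2 (Cd44), 3 with the block (Cd44, Has1 and Tnfaip6) and 0 to 1 leaving out a library. Placebo and MPA+E libraries share only a number, and their deviations correlated at 0.396 (2 pairs). Hyperplasia against normal called 2280 genes, 4017 by DESeq2 and 1 to 4810 leaving out a library, and 1 member, 2 by DESeq2 and 0 to 2 leaving out a library. Tumour against hyperplasia called 4777 genes and 242 to 7120 leaving out a library. Its 5 members became 3 with non-fibroblasts kept, 4 with the replicate block, 2 in raGFP-Wnt1 libraries alone (chosen after seeing the data) and 0 to 6 leaving out a library. Pairs within states went from 1 to 7 without a filter on low counts, 11 with the block (with Has2 at 0.56 in adipogenesis-regulatory fibroblasts and -0.47 in progenitors) and 0 to 9 leaving out a library for hormone, and from 10 to 19 with the block and 3 to 15 leaving out a library for tumour. Shares of all genes passing within states under these alternatives are not given. The pair counts, and the tumour member counts under the alternatives, are therefore not read as a result about the members. Signs turned for changes that were not called with all libraries. Has2 under hormone was 0.012 with non-fibroblasts kept, and -0.41 to 0.27 leaving out a library. Leaving out a library, Hyal2 under hormone spanned -0.12 to 0.45, in hyperplasia Hyal1 spanned -0.025 to 0.27, Cd44 -0.10 to 0.45 and Tnfaip6 -0.12 to 0.61, and in tumour Has1 spanned -0.78 (called, without tumour 1) to 0.41. Has3, Hapln1 and Hyal1 had the fewest UMIs of the members, so counting error is largest for them relative to their level.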
